A study of Mus musculus with 13 samples.

Results

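Cytochrome P450 enzymes are described here in neonatal mouse skin, as the genes whose symbol is Cyp followed by a digit. Of 49315 genes in the count tables, 120 carried such a symbol. *Cyp51*, *Cyp4f39* and 19 pseudogene symbols were left out, so that 99 genes stood under the rule, and the 33 with at least 10 counts in 3 or more of the 6 libraries are reported. They were thus chosen by their raw counts in these libraries, without regard to the genotype of the mouse, although a gene that reaches the minimum only through the group where it is high has to differ between the groups.

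The libraries were made from full-thickness back skin at postnatal day 4 (P4) of 3 wild-type littermates (WT) and of 3 K14Cre+Kctd1fl/flKctd15fl/fl mice (DKO), with 1 library per mouse. In the DKO mice, both floxed genes are deleted by a Cre recombinase under the keratin 14 promoter, which is active in keratinocytes and the skin appendages they form, so dermal, fat and muscle cells are not its targets. KCTD1 and KCTD15 are paralogous BTB domain proteins known as inhibitors of AP-2 transcription factors. Libraries from 3-week-old epidermis of 3 K14KCTD15KO and 4 K14KCTD1KCTD15KO mice belong to the same series, but their tables held a count of 0 at every gene and gave no value.

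P450s are haem enzymes that use molecular oxygen to hydroxylate or epoxidize lipids, hormones, vitamins and foreign compounds. Most sit in the endoplasmic reticulum and take electrons from P450 oxidoreductase, while the mitochondrial members take them from adrenodoxin. In the skin, P450s are known for clearing retinoic acid, activating vitamin D, turning arachidonic acid into epoxides and metabolizing steroids and environmental chemicals.

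Total gene counts were 14836798 to 17643043 per WT library and 11263863 to 15050299 per DKO library, and the biological coefficient of variation over genes was 20%. All 8 keratinocyte markers of a fixed list were detected and tested. They summed to 7888 to 8157 CPM (counts relative to the effective library size, the total times its TMM factor) in WT and 9749 to 12672 CPM in DKO libraries. Of the 8, 7 were higher in DKO, 3 of them with every DKO library above every WT library, against 7.24% of all genes. Their part in the P450 levels was not tested. Both groups held 2 libraries with Y-linked transcripts and 1 with *Xist*. The normalised count of *Kctd1* was 443, 410 and 442 in the WT libraries and 506, 985 and 735 in the DKO libraries, with an edgeR adjusted p of 0.342, and that of *Kctd15* was 736, 737 and 763 against 1130, 1509 and 1325, with an adjusted p of 0.107. The floxed exon is only a stretch of either gene, so these gene counts do not measure its loss. The summed level of 30 skeletal muscle markers was 6737 to 7710 CPM in WT and 10909 to 23063 CPM in DKO libraries, with the highest value in DKO1.

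The P450 transcripts of P4 skin spanned a wide range of levels. Per length, as RPKM (counts scaled to library size and exon length), the WT mean ran from 0.31 for *Cyp2u1* to 61.1 for *Cyp2g1*, with 10 genes above 5 RPKM and 8 below 1 RPKM. The leading genes in WT skin were *Cyp2g1*, an enzyme best known from the olfactory mucosa, at 61.1 ± 6.18 RPKM (SD, n = 3), and *Cyp2b19*, an arachidonic acid epoxygenase of differentiating keratinocytes, at 55.4 ± 4.85 RPKM. The WT ranges of these genes overlapped, but within every WT library *Cyp2g1* stood above *Cyp2b19*. As shares of the RPKM summed over the reported P450 genes, *Cyp2g1* held 26.6%, 24.7% and 27.3% in the WT libraries. *Cyp2b19* held 22.6%, 24.4% and 24.3% in the same libraries. The gap was narrow in WT2, and the difference between these genes was not tested. *Cyp26b1*, which hydroxylates and thereby inactivates retinoic acid, followed at 17.2 ± 0.89 RPKM. *Cyp1b1*, an estrogen and hydrocarbon hydroxylase, stood at 14.9 ± 1.25 RPKM, and its highest WT library, at 16.1 RPKM, came close to the lowest of *Cyp26b1*, at 16.2 RPKM. *Cyp2s1*, an epithelial P450 that can metabolize retinoids, came next at 8.43 ± 0.89 RPKM.

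**Figure D1:**
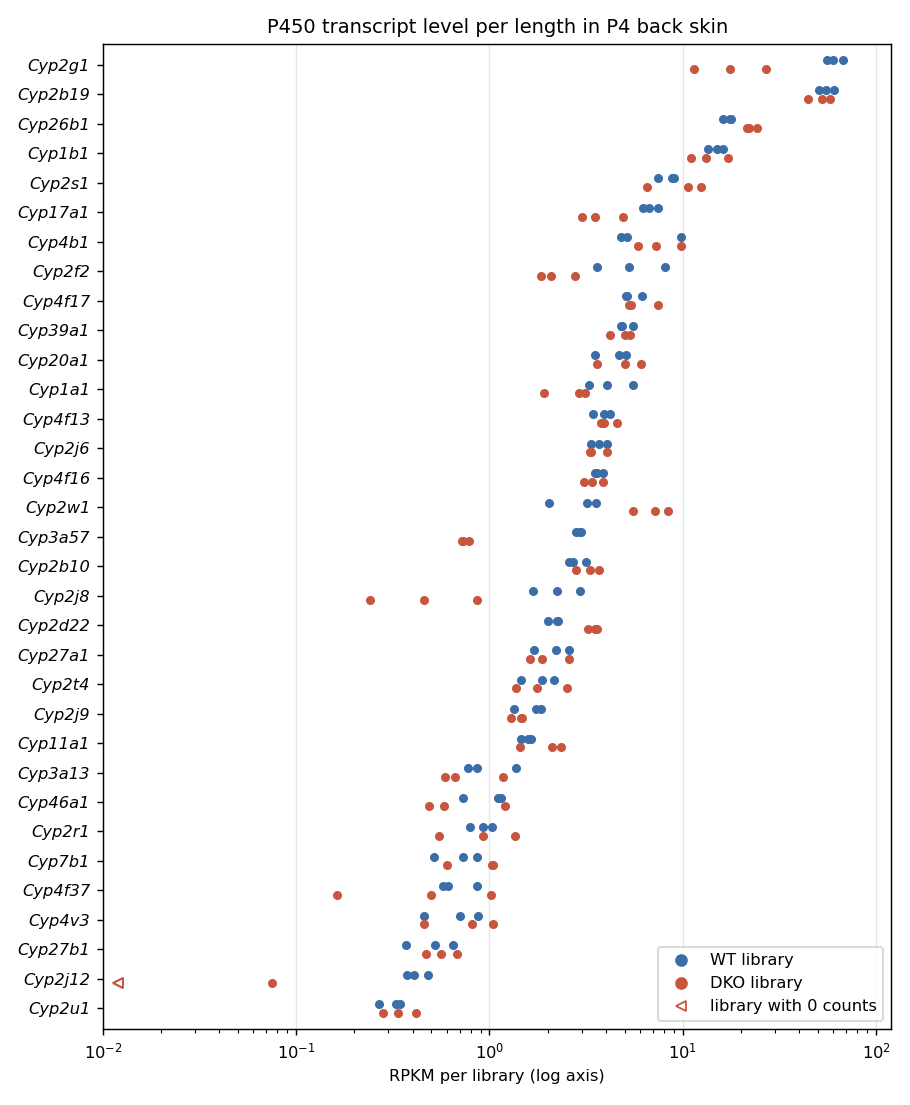
RPKM of each of the 33 P450 genes on a log axis, with 1 point per library for the 3 WT and 3 DKO libraries of P4 back skin and genes ordered by WT mean; open triangles mark libraries with 0 counts. *Cyp2g1* stands at 55.5 to 67.8 RPKM in WT and 11.4 to 26.9 RPKM in DKO libraries, while *Cyp2b19* overlaps between the groups.

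Added up over the 33 genes, P450 transcript was 225, 225 and 249 RPKM in the WT libraries and 171, 201 and 191 RPKM in the DKO libraries. Every DKO sum lay below every WT sum. Without *Cyp2g1* the sums were 172 ± 8.10 RPKM in WT and 169 ± 8.43 RPKM in DKO (SD, n = 3 each), a difference smaller than the spread between libraries. *Cyp2g1* made up 26.6%, 24.7% and 27.3% of the summed P450 RPKM in WT and 6.66%, 13.4% and 9.16% in DKO libraries. *Cyp2b19* held 22.6% to 24.4% in WT and 26.0% to 30.2% in DKO libraries and had the highest DKO level of the 33 genes, at 51.6 ± 6.69 RPKM.

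Most genes of the superfamily had few or no counts at this depth. Of the 66 genes below the count minimum, 31 had 0 counts in all 6 libraries, and 16 had 1 to 3 counts in total. A count of 0 allows up to 0.17 to 0.266 CPM per library, here relative to the unscaled library total. The 31 include *Cyp4x1os*, a transcript on the strand opposite *Cyp4x1*, which matches the rule by its symbol without being a P450 enzyme gene. None of the 15 genes of the *Cyp2c* subfamily, which is large in the liver, was reported, and 11 of them were at 0. None of 4 *Cyp2a* and 8 *Cyp4a* genes was reported either, with 0 and 2 of them at 0 in all libraries, and 1 of 8 *Cyp2d* and 2 of 9 *Cyp3a* genes were reported. The 10 hepatocyte markers summed to 18.9 to 25.1 CPM in WT and 15.6 to 30.1 CPM in DKO libraries, and 3 of the 10 had enough counts to be tested.

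At the edge of the minimum, *Cyp2j12* had 14, 13 and 14 raw counts in the WT libraries and 0, 2 and 0 in the DKO libraries, and was the only gene that reached 10 counts in one group alone. *Cyp2j8* reached it in 4 libraries and *Cyp4f37* in 5, and the other 30 genes in all 6. Just outside were *Cyp4a32*, with raw counts of 3, 10 and 22 in WT and 6, 3 and 8 in DKO, and *Cyp24a1*, with 2, 3 and 0 in WT and 0, 10 and 8 in DKO. *Cyp2ab1*, *Cyp2e1* and *Cyp4f18* reached 10 counts in 1 library each.

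The comparison of DKO with WT skin asks which transcripts differ when keratinocytes lack both KCTD proteins. All 33 P450 genes entered the edgeR quasi-likelihood test over 20168 genes, with Benjamini-Hochberg adjustment over all of them, and a call required an adjusted p under 0.05 together with a log2 fold change beyond 1 in either direction. One P450 gene, *Cyp3a57*, was called, and it fell; over all genes, 14 were called (0.0694%), of which 6 were lower (0.0298%) and 8 higher (0.0397%) in DKO. In 10 of the 33 P450 genes the WT and DKO libraries did not overlap, 7 of them with all DKO libraries lower and 3 higher. One of the 7, *Cyp2j12*, passed the count minimum through its WT libraries alone, so its groups had to separate, and without it 6 of 32 genes were lower. Over all genes, groups did not overlap in 13.2%, with DKO lower in 5.96% and higher in 7.24%. The same 10 P450 genes, *Cyp2j12* again among them, had an unadjusted p under 0.05, which 7.5% of all genes had (2.54% lower and 4.96% higher). With 3 libraries a group, an exact two-sided permutation test cannot go below p = 0.1.

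The other 23 genes overlapped between the groups. Their log2 fold changes ran from -0.37 to 0.34, with 18 within 0.25 of 0, and their lowest adjusted p was 0.866. The median log2 fold change was -0.05 over the 33 P450 genes and 0.02 over all genes tested. DESeq2, the tool used in the study, called 5 P450 genes on the same counts, *Cyp3a57*, *Cyp2g1*, *Cyp2j8* and *Cyp2f2* lower and *Cyp2w1* higher, where it called 0.827% of all genes (0.305% lower and 0.522% higher). Without a filter on low counts, edgeR called these 5 and *Cyp2j12*, where it called 0.624% of all genes.

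**Figure D2:**
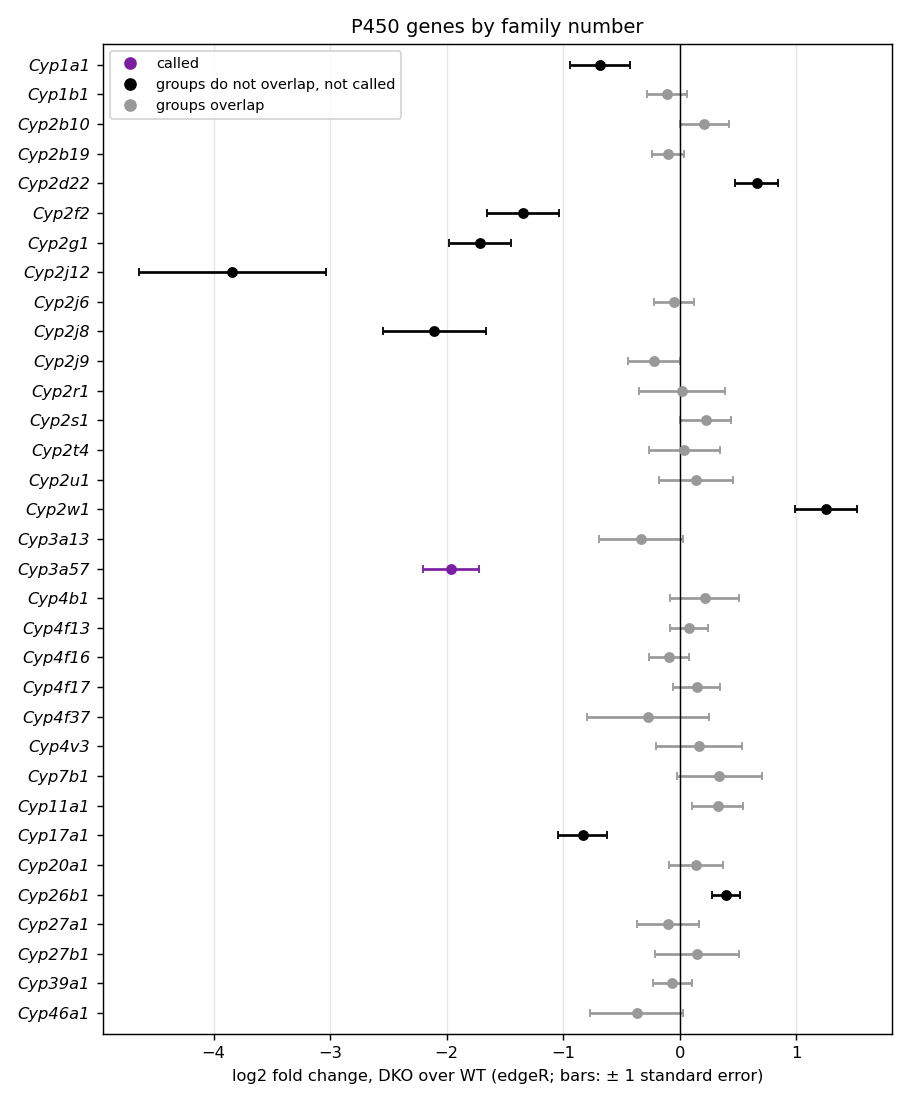
Log2 fold change of DKO over WT from edgeR for the 33 P450 genes by family number, with bars of 1 standard error; purple marks the called gene, black the genes whose groups did not overlap, and grey the rest. *Cyp2j12*, *Cyp2j8*, *Cyp3a57*, *Cyp2g1* and *Cyp2f2* lie below -1 and *Cyp2w1* above 1, and the 23 grey genes lie between -0.37 and 0.34.

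*Cyp3a57* belongs to the *Cyp3a* subfamily, whose enzymes oxidize steroids and many drugs. It lies on chromosome 5 (145345279 to 145390926, plus strand, GRCm38). Its normalised count was 88.7, 84.9 and 90.7 in the WT libraries and 23.7, 22.1 and 21.9 in the DKO libraries. The libraries of each group lay close together, and the groups were far apart, 88.1 ± 2.95 against 22.5 ± 0.974 (SD, n = 3 each), or 3.91-fold lower in DKO. The log2 fold change was -1.96 ± 0.24 (SE), with an edgeR adjusted p of 0.0249 and a DESeq2 adjusted p of 4.5e-06. The edgeR call was lost when any 1 of 4 libraries was left out, at an adjusted p of 0.189 without WT1, 0.163 without WT2, 0.148 without WT3 and 0.107 without DKO3, and over all 6 omissions the log2 fold change ranged from -2.01 to -1.94. The other *Cyp3a* gene reported, *Cyp3a13*, overlapped between the groups, with 38.7, 34.8 and 61.6 normalised counts in WT and 52.6, 26.5 and 29.9 in DKO. Of the 75-base stretches of the *Cyp3a57* transcripts, 1.00% also occur in *Cyp3a59*, so little of its sequence is shared at that length.

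*Cyp2g1* had the second lowest p of the P450 genes. It lies on chromosome 7 (26808892 to 26821205, plus strand), in a group of *Cyp2* genes. Its normalised count was 1957, 1812 and 2211 in WT and 371, 878 and 570 in DKO libraries, so every DKO library lay far below every WT library. The group means were 1993 ± 202 and 606 ± 256, 3.29-fold lower in DKO. The log2 fold change was -1.71 ± 0.26, with an edgeR adjusted p of 0.0710, above the threshold, and a DESeq2 adjusted p of 3.2e-08. The edgeR adjusted p was 0.00549 without DKO1 and 0.0109 without DKO2, where the gene was called, and up to 0.310 over the other omissions. It was 0.0480 when the skeletal muscle list, which was highest in DKO1, was kept out of the library sizes.

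The lower *Cyp2g1* level went together with lower sebaceous gland transcripts. The 15 sebaceous markers summed to 2784, 2989 and 2538 CPM in WT and 1062, 1854 and 1356 CPM in DKO libraries. None was called by edgeR, 8 of the 15 did not overlap between groups, all with DKO lower, against 5.96% of all genes, and their median log2 fold change was -0.89. Among the DKO libraries, the marker sum and *Cyp2g1* had the same order, as did *Cyp2s1*, with DKO1 lowest and DKO2 highest. Among the WT libraries the order was reversed, with WT2 highest in the marker sum and lowest in *Cyp2g1*. *Cyp3a57* differed by less than 2 normalised counts among the DKO libraries, in which the marker sum varied between 1062 and 1854 CPM. The hair follicle markers also summed lower in DKO, at 4911, 11788 and 8871 against 12130 to 13808 CPM, with the same order of the DKO libraries. Of the 11 tested, 4 did not overlap, all lower, against 5.96% of all genes, and the median log2 fold change was -0.50. Both marker lists were chosen with earlier results of these data known, so these counts are no independent support. In whole skin, fewer cells of a type and less RNA per cell cannot be told apart, and the part of either cell type in the P450 levels was not tested.

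**Figure D3:**
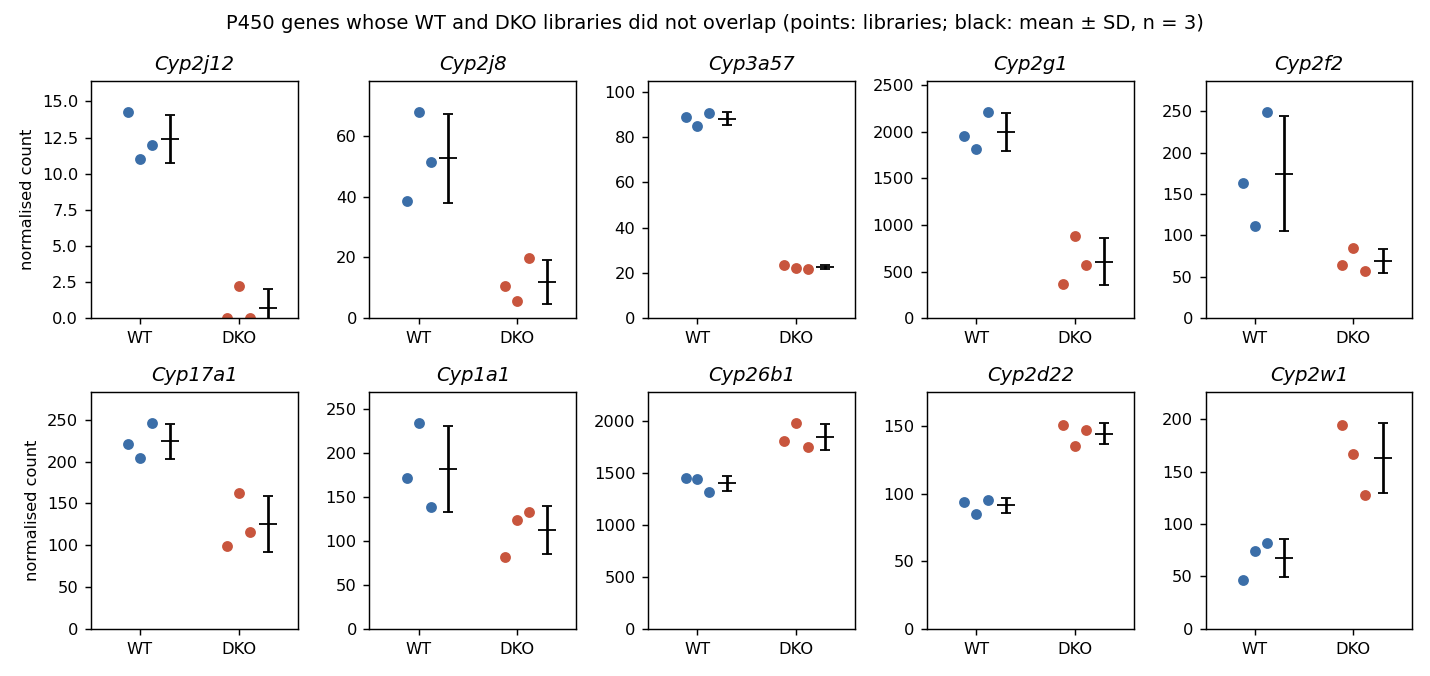
Normalised count per library of the 10 P450 genes whose WT and DKO libraries did not overlap, with the mean and SD (n = 3) beside the points and each vertical axis starting at 0, where the lower SD bar of *Cyp2j12* is cut off. *Cyp3a57* has its WT libraries at 84.9 to 90.7 and its DKO libraries at 21.9 to 23.7, and *Cyp2w1*, *Cyp2d22* and *Cyp26b1* have every DKO library above every WT library.

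Within the same stretch of chromosome 7, *Cyp2f2* was also lower. It encodes an enzyme best known from airway club cells, where it activates naphthalene. Its normalised count was 163, 111 and 249 in WT and 64.4, 84.9 and 56.7 in DKO libraries, a log2 fold change of -1.34 ± 0.31 with an edgeR adjusted p of 0.242 and a DESeq2 adjusted p of 0.00596. The groups did not overlap, but the WT libraries differed more than 2-fold among themselves. An antisense gene, *Gm15883*, covers 13.5% of the *Cyp2f2* exon bases, and the strand setting of the counting is not given in the sources used here.

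The chromosome 7 group spans 1356 kb (25802475 to 27158668) and holds 13 genes under the rule, of which 6 are reported. Besides *Cyp2g1* and *Cyp2f2*, these are *Cyp2b19*, *Cyp2b10*, *Cyp2s1* and *Cyp2t4*, whose groups overlapped. *Cyp2b19* starts 51.8 kb from *Cyp2g1*, and its normalised count was 3222, 3482 and 3835 in WT and 2817, 3331 and 3659 in DKO libraries. Its log2 fold change was -0.10 ± 0.14, against -1.71 ± 0.26 for its neighbour *Cyp2g1*, and the difference between the 2 genes was not tested.

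On chromosome 4, the *Cyp2j* genes, a subfamily that epoxidizes arachidonic acid, lie within 636.6 kb (96027534 to 96664154), and 4 of 8 were reported. The normalised count of *Cyp2j8* was 38.7, 67.9 and 51.3 in WT and 10.5, 5.52 and 19.9 in DKO libraries. That is 4.40-fold lower in DKO, with a log2 fold change of -2.11 ± 0.44, an edgeR adjusted p of 0.204 and a DESeq2 adjusted p of 0.00512. *Cyp2j12* had 41 counts over the WT and 2 over the DKO libraries. The depth-scaled ratio of WT to DKO was 16.5 (95% exact interval 4.27 to 140, counting error only). Its edgeR adjusted p was 0.204, and DESeq2 gave no adjusted p. The gene passed the count minimum through its WT libraries alone, so these values come from the counts that selected it and are no independent support. Its fitted log2 fold change of -3.84 ± 0.80 rests on 2 DKO libraries at 0 and depends on the prior count. It was -6.67 without DKO2, which leaves only libraries at 0 in that group, and -3.25 at its smallest over the other omissions. *Cyp2j6* and *Cyp2j9*, from the same stretch, had log2 fold changes of -0.05 and -0.22 with overlapping groups. No 75-base stretch of *Cyp2j8* or *Cyp2j12* occurs in another P450 gene.

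*Cyp2w1* was the P450 gene with the largest difference upward. It encodes an enzyme known from the fetal gut and from colon tumours and lies on chromosome 5 (139352617 to 139357033, plus strand). Its normalised count was 46.9, 73.8 and 82.1 in WT and 195, 167 and 127 in DKO libraries, 2.41-fold higher in DKO. The log2 fold change was 1.26 ± 0.26, with an edgeR adjusted p of 0.204 and a DESeq2 adjusted p of 0.00418. *Cyp2d22*, the reported gene of the drug-metabolizing *Cyp2d* subfamily, had 93.8, 84.9 and 95.8 normalised counts in WT and 151, 136 and 147 in DKO libraries. The libraries of either group were close, the log2 fold change was 0.66 ± 0.18, and neither tool called it, at an adjusted p of 0.342 by edgeR and 0.244 by DESeq2.

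Upstream sequences are shown for the 4 genes with differences over 2-fold whose window lies wholly outside the gene body in the tables. Each is the 250 bases before the start of transcription in RefSeq (GRCm38.p6), 5′ to 3′ on the strand of the gene. These windows cover chr5:145345019-145345268 (plus strand) for *Cyp3a57*, chr5:139352366-139352615 (plus strand) for *Cyp2w1*, chr4:96507398-96507647 (minus strand) for *Cyp2j8* and chr4:96141153-96141402 (minus strand) for *Cyp2j12*. Capitals mark a match, on either strand, to GCCNNNGGC (the AP-2 motif), AGGTCA (the half-site of many nuclear receptors) or GCGTG (the core bound by the aryl hydrocarbon receptor).
Cyp3a57: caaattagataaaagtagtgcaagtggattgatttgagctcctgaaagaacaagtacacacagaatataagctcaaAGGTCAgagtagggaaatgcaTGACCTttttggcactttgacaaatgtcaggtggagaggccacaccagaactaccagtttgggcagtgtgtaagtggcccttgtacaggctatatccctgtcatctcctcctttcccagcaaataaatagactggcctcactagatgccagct
Cyp2w1: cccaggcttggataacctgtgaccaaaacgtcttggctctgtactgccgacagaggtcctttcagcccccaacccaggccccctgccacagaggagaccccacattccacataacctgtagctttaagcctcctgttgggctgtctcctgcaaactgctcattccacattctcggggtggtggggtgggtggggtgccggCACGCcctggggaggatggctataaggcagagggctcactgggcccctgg
Cyp2j8: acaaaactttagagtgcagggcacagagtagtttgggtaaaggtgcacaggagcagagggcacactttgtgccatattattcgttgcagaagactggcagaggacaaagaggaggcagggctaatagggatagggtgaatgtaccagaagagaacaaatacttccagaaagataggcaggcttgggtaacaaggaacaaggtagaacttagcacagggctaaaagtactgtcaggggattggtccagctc
Cyp2j12: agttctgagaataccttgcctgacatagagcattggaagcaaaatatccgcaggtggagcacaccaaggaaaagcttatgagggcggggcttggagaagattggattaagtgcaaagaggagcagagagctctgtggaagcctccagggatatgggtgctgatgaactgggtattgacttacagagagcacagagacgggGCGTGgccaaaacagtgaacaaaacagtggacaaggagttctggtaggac

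The *Cyp3a57* window holds AGGTCA in both orientations, 174 and 153 bases before the start. *Cyp2w1* and *Cyp2j12* each hold one GCGTG core, 50 bases before the start, and *Cyp2j8* holds none of the 3 motifs. The windows of *Cyp2j8* and *Cyp2j12* were 54.8% identical when aligned. Pairs among *Cyp2j6*, *Cyp2j8*, *Cyp2j9* and *Cyp2j12* ranged from 50.2% to 55.0%, the highest being *Cyp2j12* with *Cyp2j9*, whose groups overlapped. RefSeq windows were matched for 26 of the 33 genes, not including *Cyp2g1* and *Cyp17a1*. GCCNNNGGC was found in 4 of the 26 (*Cyp1b1*, *Cyp26b1*, *Cyp2t4* and *Cyp46a1*) and in 13.7% of all 32851 windows. AGGTCA was found in 5 of the 26 against 14% of all windows, and GCGTG in 10 against 28.2%. No motif overlapped another in the printed windows. A match describes the letters only and is no evidence of binding.

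Retinoic acid hydroxylation is the task of family 26. *Cyp26b1* had 1449, 1435 and 1317 normalised counts in WT and 1801, 1981 and 1750 in DKO libraries. All DKO libraries were higher, by 1.32-fold, with a log2 fold change of 0.40 ± 0.12 and an edgeR adjusted p of 0.379. Its share of the summed P450 RPKM was 6.51% to 7.91% in WT and 11.3% to 13.0% in DKO libraries. That sum was itself lower in DKO, at a mean of 188 against 233 RPKM, so the share does not measure the level of *Cyp26b1* alone. *Cyp26a1* and *Cyp26c1* had 10 and 28 raw counts over all 6 libraries. *Cyp2s1* had 662, 680 and 557 normalised counts in WT and 489, 929 and 799 in DKO libraries, which overlapped. Of 33 tested genes of retinoid metabolism and binding, none was called, 2 were higher and 4 lower without overlap, against 7.24% and 5.96% of all genes, and the median log2 fold change was -0.03. The 4 lower genes were *Sdr16c6*, *Rdh11*, *Fabp5* and *Rarres1*, with log2 fold changes of -0.76, -0.51, -0.47 and -0.50. The 2 higher genes were *Rxrg*, a retinoid X receptor, at 1.32 with an edgeR adjusted p of 0.253, and *Rdh13* at 0.36 with an adjusted p of 0.627. *Rxrg* had 35.7, 24.6 and 30.8 normalised counts in WT and 105, 57.4 and 65.7 in DKO libraries. *Rara*, a retinoic acid receptor, was at 0.07 with overlapping groups.

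Vitamin D is activated by *Cyp2r1* and *Cyp27b1* and inactivated by *Cyp24a1*. *Cyp2r1* had 25.5, 33.1 and 29.9 normalised counts in WT and 43.4, 17.7 and 29.9 in DKO libraries. *Cyp27b1* had 20.4, 25.5 and 14.5 in WT and 18.4, 26.5 and 21.9 in DKO libraries. Both overlapped, with log2 fold changes of 0.02 ± 0.37 and 0.15 ± 0.36, errors that leave changes of moderate size undetectable at this depth. *Vdr*, the vitamin D receptor, was at -0.07. None of the 11 tested genes of the pathway was called. *Trpv6*, a calcium channel, was the one gene of the 11 without overlap, lower at -0.26, against 5.96% lower without overlap over all genes.

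Of the steroid hormone enzymes, *Cyp17a1* and *Cyp11a1* were reported. *Cyp17a1*, the hydroxylase and lyase on the way to androgens, lies on chromosome 19 (46667165 to 46672974, minus strand). Its normalised count was 221, 205 and 246 in WT and 98.6, 162 and 115 in DKO libraries, 1.79-fold lower in DKO without overlap. The log2 fold change was -0.83 ± 0.21, with an adjusted p of 0.291 by edgeR and 0.0481 by DESeq2. *Cyp11a1*, which cleaves the cholesterol side chain, had 106, 116 and 120 in WT and 171, 154 and 106 in DKO libraries, with an adjusted p of 0.866. *Cyp19a1*, the aromatase, was at 0 in all libraries, and *Cyp21a1* and the *Cyp11b* genes had 8 and 5 counts in total.

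Markers of the adrenal gland and gonad summed to 27.2 to 29.8 CPM in WT and 26.4 to 29.5 CPM in DKO libraries, with 2 of the 8 tested. None of 21 tested genes of steroid synthesis and turnover was called, and 3 were higher and 3 lower without overlap, against 7.24% and 5.96% of all genes. The higher ones were *Esr1*, an estrogen receptor, *Hsd11b2* and *Hsd17b10*, with log2 fold changes of 0.32, 0.32 and 0.18 and adjusted p of 0.733, 0.883 and 0.898. The lower ones were *Hsd17b12* at -0.51 with an adjusted p of 0.298, *Hsd17b4* at -0.12 with an adjusted p of 0.925, and *Hsd3b6*. *Hsd3b6*, a hydroxysteroid dehydrogenase of peripheral tissues, had 470, 514 and 486 normalised counts in WT and 101, 351 and 187 in DKO libraries, a log2 fold change of -1.20 with an adjusted p of 0.352. The DKO libraries of *Hsd3b6* had the same order as those of *Cyp17a1* and *Cyp2g1*, with DKO1 lowest and DKO2 highest. *Cyp2s1* and *Vdr* had this order as well, *Cyp11a1* and *Cyp1b1* did not, and a link between these genes was not tested. Among the WT libraries, WT2 was highest for *Hsd3b6* and lowest for *Cyp17a1* and *Cyp2g1*.

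The 4 reported oxysterol and bile acid enzymes overlapped between the groups. *Cyp39a1*, an oxysterol hydroxylase, had 258, 222 and 226 normalised counts in WT and 234, 194 and 247 in DKO libraries. *Cyp27a1*, the mitochondrial sterol hydroxylase, had 85.6, 73.0 and 56.5 in WT and 61.8, 84.9 and 53.8 in DKO libraries. *Cyp7b1*, which clears oxysterols, had 28.5, 17 and 24.0 in WT and 34.2, 19.9 and 33.8 in DKO libraries. *Cyp46a1*, the cholesterol hydroxylase known from brain, had 23.4, 35.7 and 36.8 in WT and 15.8, 18.7 and 38.8 in DKO libraries. *Cyp7a1* and *Cyp8b1*, the liver enzymes of bile acid synthesis, had 3 counts each in total. Among 10 tested genes of the oxysterol response, none was called and 2 did not overlap, both lower, against 5.96% of all genes. *Soat1*, which esterifies sterols and also stands among the sebaceous markers, was lower at -0.84 with an adjusted p of 0.270.

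Family 1 is the classic target of the aryl hydrocarbon receptor. *Cyp1a1* had 171, 234 and 139 normalised counts in WT and 81.5, 124 and 132 in DKO libraries. The groups were separated only by the gap between 132 and 139, and the log2 fold change of -0.68 ± 0.26 had an adjusted p of 0.538. *Cyp1b1* had 1253, 1167 and 1057 in WT and 856, 1029 and 1341 in DKO libraries and overlapped. *Ahr* itself was at 0.16 with overlapping groups. None of 13 tested genes of the pathway was called, and 1 was higher and 1 lower without overlap, against 7.24% and 5.96% of all genes. The higher one was *Nfe2l2*, a regulator of the oxidative stress response, with 835, 874 and 1108 normalised counts in WT and 1262, 1174 and 1214 in DKO libraries, or 0.37 on the log2 scale (adjusted p 0.545). *Ahrr*, the repressor of the receptor, overlapped at 0.55 with an adjusted p of 0.561. The lower one, *Aldh3a1*, an aldehyde dehydrogenase, had 191, 217 and 191 in WT and 40.8, 153 and 75.7 in DKO libraries, at an adjusted p of 0.455.

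Family 4 holds fatty acid hydroxylases, and its 6 reported genes (*Cyp4b1*, *Cyp4f13*, *Cyp4f16*, *Cyp4f17*, *Cyp4f37* and *Cyp4v3*) all overlapped, with log2 fold changes from -0.27 to 0.21 and a lowest adjusted p of 0.946. *Cyp4f37* and *Cyp4f16* are uncertain, since 11.4% and 10.1% of their 75-base stretches occur in another P450 gene. *Cyp2u1*, a fatty acid hydroxylase, *Cyp20a1*, an enzyme of unknown substrate, *Cyp2t4*, *Cyp2b10*, *Cyp2j6*, *Cyp2j9* and *Cyp3a13* overlapped as well. Of the P450 enzymes under other symbols, *Ptgis*, the prostacyclin synthase, had a log2 fold change of 0.94 ± 0.49 (adjusted p 0.764) and *Tbxas1*, the thromboxane synthase, 0.29 ± 0.23 (adjusted p 0.899). Among 28 tested genes of eicosanoid and epoxide metabolism, none was called and 2 did not overlap, both higher, a share near the 7.24% of all genes. These were *Alox12b*, the epidermal lipoxygenase, at 0.53 and *Ptges*, the prostaglandin E synthase, at 0.49.

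The electron partners of the P450s gave no call. *Por*, the reductase that serves the microsomal members, had 527, 626 and 687 normalised counts in WT and 652, 869 and 501 in DKO libraries, and its log2 fold change was 0.14 ± 0.20. Of the 9 tested partners, *Pgrmc2*, a haem-binding membrane protein, was the only one without overlap, lower at -0.18, against 5.96% of all genes. Of 25 tested conjugating enzymes and drug receptors, none was called, 1 was higher and 3 lower without overlap, against 7.24% and 5.96% of all genes. The higher one was *Gsto1* at 0.31, and the lower ones were *Gsta2* at -0.92, *Ugt1a1* at -0.59 and *Gstm2* at -0.20.

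**Figure D4:**
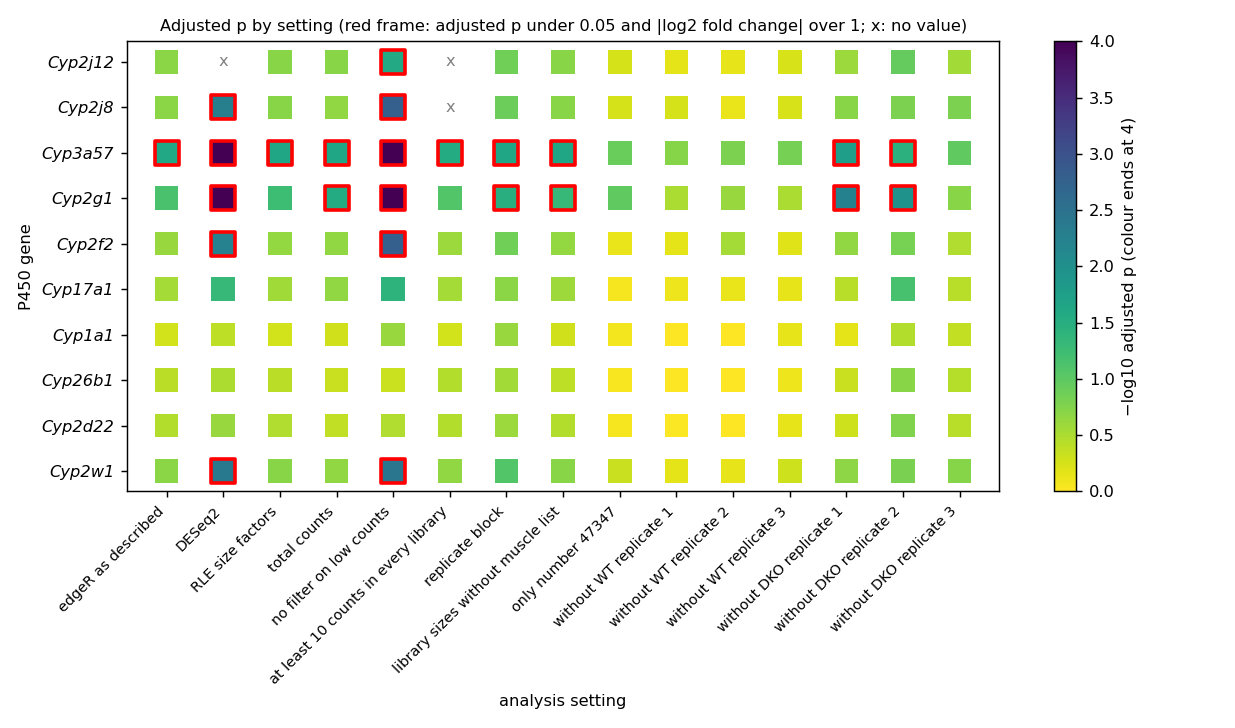
Negative log10 of the adjusted p for the 10 P450 genes whose groups did not overlap, under each setting of the analysis along the horizontal axis; a red frame marks a call, and a cross marks no value. *Cyp3a57* is framed in 10 of the 15 settings and *Cyp2g1* in 7, and *Cyp17a1*, *Cyp1a1*, *Cyp26b1* and *Cyp2d22* in none.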

How the data were processed

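Total RNA of full-thickness back skin from 3 WT and 3 DKO mice at P4 was depleted of ribosomal RNA and sequenced as paired ends. Per the labels and the submitters' processing notes, the authors trimmed reads with Trimmomatic 0.36, aligned them with STAR 2.5.2b and deposited raw read counts per gene from featureCounts (Subread 1.5.2). The build is GRCm38, although the notes also list GRCh38. Symbols were found for 48970 of 49315 identifiers (99.3%). No count table gave a value for the 7 epidermis libraries, which are not analysed here.

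Genes were tested with edgeR 4.0.16 in R 4.3.3 (filterByExpr, TMM, quasi-likelihood F test, genotype only) on the 6 P4 libraries, and with DESeq2 1.42.0 as an alternative. A normalised count is the count scaled from its library's effective size (total times TMM factor) to the mean of the 6. RPKM used the effective size and the exon length of the tables. SE is that of the log2 fold change, taken as its absolute value divided by the square root of the F statistic. The p-values rest on the spread between 3 mice a group, with the spread of each gene moderated by that of all genes tested. The analysis was tested on simulated data. Symbols ending in -ps and a digit were left out as pseudogenes.

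All 33 genes are named. Values per library are given for genes that were called, had an unadjusted p under 0.05 or did not overlap, for the 5 highest per length and for the members of 5 role groups, with the exception of some genes given to show neighbours. The P450 genes, the other gene lists and the markers were chosen with earlier results of these data known. Intervals cover counting error only.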

Additional observations from a re-analysis of the deposited data

How the results depend on the processing

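The 33 P450 genes were 32 with a minimum of 20 counts or of 1 CPM of the unscaled library total, and 30 with 10 counts in all 6 libraries. Against 1 P450 gene called, 5 were called by DESeq2, 6 with no filter on low counts, and 2 each with total counts, with library sizes lacking the skeletal muscle list and with the number in the sample titles as a replicate block, while 0 were called in the 4 libraries with the number 47347 and 0 to 2 when a library was left out. Over all genes, 14 were called, against 152 by DESeq2, 210 with no filter, 22 with total counts, 35 with the block, 9 in the 4 libraries and 2 to 36 when a library was left out. Of the genes on the other lists, 0 were called, against 26 by DESeq2, 27 with no filter, 1 with RLE factors, 2 with total counts, 2 without the muscle list, 4 with the block, 1 in the 4 libraries and 0 to 8 when a library was left out. With no filter, 33677 genes were tested, which alters the adjustment and the estimated spread together, and the cause of the higher count was not tested. Samples of different genotype with the same title number had correlations of their deviations of -0.019 to 0.23, others of -0.152 to -0.104. Every same-number pair thus lay above every other pair. The correlations do not count separately, since the deviations sum to 0 within each genotype. Only WT3 and DKO1 carry the second number, and their value of 0.23 constrains those of the other pairs. The labels do not say what the number marks, so whether it stands for a litter is not established. With the block, *Cyp2g1* and *Cyp3a57* were called, at an adjusted p of 0.0338 and 0.0230. Of 459 fold changes recomputed for single P450 genes, 415 kept direction and side of the threshold, 14 passed it newly and 5, all of *Cyp3a57*, were lost, one of them in the 4 libraries at an adjusted p of 0.122. Another 25 turned sign, in 15 genes with overlapping groups. For 14 of them this came from leaving out a library, where the log2 fold change ranged from -0.297 to 0.0209 for *Cyp1b1*, -0.167 to 0.0127 for *Cyp2j6*, -0.318 to 0.299 for *Cyp2r1*, -0.224 to 0.231 for *Cyp2t4*, -0.0126 to 0.242 for *Cyp2u1*, -0.0175 to 0.608 for *Cyp4b1*, -0.0148 to 0.139 for *Cyp4f13*, -0.0281 to 0.232 for *Cyp4f17*, -0.993 to 0.115 for *Cyp4f37*, -0.110 to 0.439 for *Cyp4v3*, -0.0483 to 0.324 for *Cyp20a1*, -0.307 to 0.0416 for *Cyp27a1*, -0.0544 to 0.350 for *Cyp27b1* and -0.135 to 0.0389 for *Cyp39a1*. In the 4 libraries, *Cyp2b19* was at 0.0439 and *Cyp2r1* at -0.313, with the block *Cyp2r1* was at -0.0075, and with total counts *Cyp2r1* was at -0.0004 and *Cyp2t4* at -0.0089. The causes of these changes were not tested. Depth limits the genes with few counts, such as *Cyp2r1* and *Cyp27b1*, with standard errors of 0.37 and 0.36.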
